A study of Homo sapiens with 4 samples.

Results

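PDZK1, CFTR, ezrin (EZR), the scaffold NHERF1 and the sodium-proton exchangers SLC9A2, SLC9A3, SLC9A7 and SLC9A8 are described together here. Several of them, though not all, act mainly at the apical membrane of epithelial cells. All 8 were looked up by gene symbol in the platform annotation of the arrays. Of these 8 genes 6 had a transcript cluster, a probe set that summarises one locus, among 21448 measured. NHERF1 and SLC9A7 were not analysed here. The set was chosen by the measured fb-PMT minus control differences of PDZK1 and SLC9A2, to which partners were added, so the differences of the 6 genes are a description, given without a test of their own.

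The cells were SUIT2, an established human line known from pancreatic ductal adenocarcinoma, although the labels call them glioblastoma. The fb-PMT group (n = 2 arrays) was treated with 30 µM fb-PMT during 24 h. This agent is a polyethylene glycol conjugate of a thyroid hormone analog that is directed at integrin αvβ3. The control group (n = 2 arrays), titled untreated, received phosphate-buffered saline for the same 24 h, and both groups grew in RPMI medium with serum. The comparison asks which transcripts differ between exposed and control cells. Nothing in the labels says that the 2 arrays of a group came from separate cultures. Differences between the arrays of a group may therefore be technical. Each SE is from the limma fit, which draws a gene's own variance toward a value shared by all transcript clusters. It is therefore not the spread of that gene's arrays alone.

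In a polarised epithelium, scaffold proteins with PDZ domains grip the tails of transporters and hold them in complexes below the apical membrane. NHERF1 ties such complexes to ezrin, which links membrane to actin, while PDZK1 (also called NHERF3) gathers several transporters side by side. CFTR is the chloride and bicarbonate channel of the pancreatic duct, and sodium-proton exchangers move protons across a membrane in exchange for sodium. NHERF proteins are known to couple CFTR and SLC9A3 to protein kinase A.

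Among the marker lists, 4 of 5 epithelial genes (KRT8, KRT18, KRT19 and EPCAM) lay above the negative control probe sets, and CDH1 did not. All 4 glial markers, GFAP and OLIG2 among them, lay below them on each of the 4 arrays, which goes against the labelled cell type. Of the other lists, 1 of 3 stromal markers (COL1A2), 1 of 3 leukocyte markers (CD68) and 0 of 3 proximal tubule markers lay above. The mean over the 5 epithelial markers was 13.92 to 13.94 in control cells and 13.82 to 13.84 with fb-PMT, and single markers differed in either direction. The log2 difference of KRT18 was -0.46 (SE 0.16), that of KRT8 -0.29, that of KRT19 -0.19 and that of EPCAM 0.35. The groups of these 4 genes did not overlap, nor did those of CDH1 (0.10, below the negative controls). The same held for 42.6% of all transcript clusters. Of the 5 markers 0 passed limma's test. KRT18 was lower at an unadjusted p under 0.05, as were 5.49% of all transcript clusters. The part of these markers in the results below was not tested. The negative controls' 95th percentile, used as the background, ran from 7.15 to 7.38 over the 4 arrays. In such bulk RNA, fewer cells that express a gene and less RNA per cell cannot be told apart.

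The promoters of the 3 members with the largest differences are printed because PDZK1 and CFTR were higher and SLC9A2 was lower with fb-PMT. Each sequence is the 250 bases before the RefSeq start in GRCh38.p14, read 5′ to 3′ on the gene's strand. They are chr1:145707401-145707650 on the minus strand for PDZK1 (the farther upstream of its 2 starts), chr7:117479775-117480024 on the plus strand for CFTR, and chr2:102619303-102619552 on the plus strand for SLC9A2. Capitals mark matches, on either strand, to the letters searched. The build the array design used is not given in the sources used here.
PDZK1: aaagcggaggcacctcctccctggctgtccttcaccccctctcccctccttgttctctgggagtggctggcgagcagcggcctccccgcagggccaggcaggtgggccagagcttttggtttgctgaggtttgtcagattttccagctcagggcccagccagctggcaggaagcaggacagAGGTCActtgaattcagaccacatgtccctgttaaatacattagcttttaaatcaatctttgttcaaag
CFTR: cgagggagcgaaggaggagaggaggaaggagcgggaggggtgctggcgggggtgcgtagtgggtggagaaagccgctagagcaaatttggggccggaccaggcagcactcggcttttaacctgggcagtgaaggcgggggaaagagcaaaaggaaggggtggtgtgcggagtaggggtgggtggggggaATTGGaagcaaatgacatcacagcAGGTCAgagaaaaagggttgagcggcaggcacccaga
SLC9A2: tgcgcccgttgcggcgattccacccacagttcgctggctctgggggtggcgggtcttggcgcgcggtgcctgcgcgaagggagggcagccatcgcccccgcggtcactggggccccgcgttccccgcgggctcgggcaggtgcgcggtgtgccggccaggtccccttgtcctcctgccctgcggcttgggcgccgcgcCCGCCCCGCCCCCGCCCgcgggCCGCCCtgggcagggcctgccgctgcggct
The letters, chosen with the sequences in view, were AGGTCA for a nuclear receptor core, AANNGAAA for an IRF type site, TTCNNNGAA for a STAT type site, TATAAA for a TATA box, GGGCGG for a GC box and CCAAT for the box of that name. Matches of GGGCGG may overlap each other. AGGTCA was 69 to 64 bases before the start of PDZK1, and it was the 1 match there. In CFTR it was 37 to 32 bases before the start, with CCAAT on the other strand at 61 to 57. The window of SLC9A8, whose values were lower with fb-PMT, also held AGGTCA, on the other strand at 217 to 212. AGGTCA occurred in 12.1% of 35116 RefSeq windows of this length, and CCAAT in 32.0%. The IRF letters (in 20.3% of windows), the STAT letters (6.57%) and the TATA letters (10.7%) had no match in these 3 windows. SLC9A2 held 4 matches to GGGCGG, between 52 and 25 bases before its start, and 42.6% of all windows held at least 1. GGGCGG was also found for EZR, SLC9A3 and SLC9A8. The windows were 55.6% GC for PDZK1, 61.2% for CFTR and 79.6% for SLC9A2, against a median of 58.0% over all windows. These matches describe letters only, and binding was not measured.

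PDZK1, a scaffold with several PDZ domains, was higher with fb-PMT. Its log2 values were 6.83 and 6.60 for control and 8.96 and 8.95 for fb-PMT. Both control arrays were below the negative controls and both fb-PMT arrays were above them, and the groups were 2.13 apart at their nearest arrays. The replicates themselves were 0.23 apart for control and 0.01 for fb-PMT. The measured difference was 2.24 (SE 0.16, limma), and, since the control level is only bounded, the rise was at least 3.15-fold. With the 90th percentile of the negative controls as background, both control arrays count as measured and the fold was 4.73. Of 17709 named transcript clusters, 14 had a larger measured difference in this direction. PDZK1P1 is a transcribed pseudogene copy of PDZK1, and signal from it cannot be separated here.

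**Figure D1:**
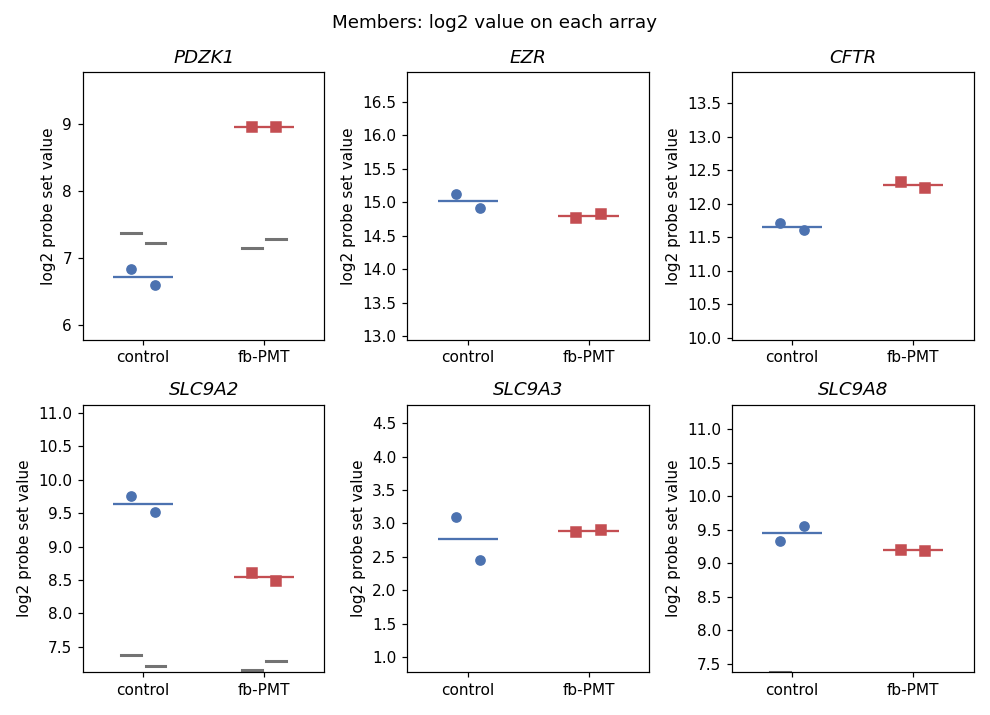
Log2 probe set values of the 6 measured members on each array, 1 panel a gene, with control arrays as circles, fb-PMT arrays as squares, the mean of 2 arrays as a line and each array's 95th percentile of negative controls as a grey dash where it falls in the panel. Every panel spans about 4 log2 units, so PDZK1 shows the widest gap between groups (6.83 and 6.60 against 8.96 and 8.95), and SLC9A3 is the 1 gene whose groups overlap.

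CFTR, the channel that PDZ scaffolds cluster at the apical membrane, was 1.54-fold higher with fb-PMT. Its log2 values were 11.71 and 11.61 without the agent and 12.33 and 12.24 with it. Both fb-PMT arrays were above both control arrays, with 0.53 between the nearest, while replicates differed by 0.10 and 0.09. The difference was 0.62 (SE 0.15). It was far from the extremes of the data set, since 458 named transcript clusters had a larger one in the same direction.

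Ezrin, the membrane to actin linker that NHERF1 binds, was measured far above the negative controls. EZR had log2 values of 15.13 and 14.92 in control cells, against 14.77 and 14.82 with fb-PMT. The groups did not overlap but lay only 0.10 apart, less than the 0.21 between the control replicates. The difference was -0.23 (SE 0.16), or 1.17-fold lower.

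Among the exchangers, SLC9A2 (NHE2), an exchanger of the apical membrane, had the largest difference and the opposite sign to PDZK1. Its log2 values were 9.75 and 9.52 for control and 8.61 and 8.49 for fb-PMT. All 4 were above the negative controls, and the groups were 0.91 apart at their nearest arrays, against 0.23 and 0.12 between replicates. The difference was -1.08 (SE 0.16), or 2.12-fold lower, and 23 named transcript clusters were lower by more.

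SLC9A8 (NHE8), an exchanger of the Golgi and of the apical membrane, had log2 values of 9.34 and 9.55 for control, and of 9.20 and 9.19 for fb-PMT. The groups lay 0.13 apart, less than the 0.21 between control replicates, and the difference was -0.25 (SE 0.16), or 1.19-fold lower. SLC9A3 (NHE3), the exchanger for which the NHERF proteins are named, had values of 3.10, 2.45, 2.87 and 2.90. All 4 lay below the negative controls, the groups overlapped, and no fold is given. Its control arrays alone were 0.65 apart.

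Across all transcript clusters, limma's fit with Benjamini-Hochberg adjustment called 21 higher and 0 lower at a threshold of 0.05 (at an unadjusted p under 0.05, 1222 and 1177), which is 0.0979% of those tested. Of the 6 members 1, PDZK1, was among the 21. Groups did not overlap for 5 of the 6 members, 2 with fb-PMT above (PDZK1 and CFTR) and 3 with fb-PMT below (EZR, SLC9A2 and SLC9A8), while 42.6% of all transcript clusters did not overlap, 20.2% above and 22.3% below. The members were chosen with this comparison known, so nothing is read from these counts. With an intensity trend in the variance, 2 members were called higher (PDZK1 and CFTR) and 1 lower (SLC9A2), in a fit that called 1.37% of all transcript clusters higher and 0.513% lower. The call for PDZK1 was lost whichever of the 4 arrays was left out, while its difference stayed between 2.13 and 2.36.

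**Figure D2:**
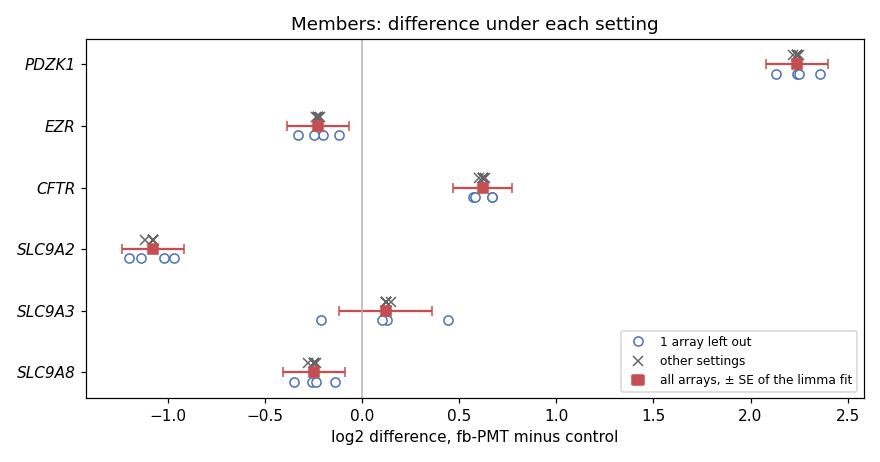
Log2 difference, fb-PMT minus control, of each member with all 4 arrays (squares, with the SE of the limma fit), with 1 array left out (circles) and under the other settings (crosses). PDZK1 stays between 2.13 and 2.36 and SLC9A2 between -1.20 and -0.97 when 1 array is left out, and SLC9A3, below the negative controls, changes sign (-0.21 to 0.44).

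The partners of PDZK1 were read from a list of transporters and receptors known to bind it, which does not hold ABCG2 (described below with the export pumps). Of 14 measured, 0 passed the test, 8 were higher and 6 lower, and 8 lay under the background on every array. Values are given here as the 2 control arrays against the 2 fb-PMT arrays, in replicate order. SLC22A5, the carnitine transporter OCTN2, had the largest difference above background. Its log2 values were 7.57 and 7.46 for control and 8.36 on both fb-PMT arrays. The groups did not overlap, and the difference was 0.84 (SE 0.15, 1.80-fold higher, limma adjusted p = 0.192). The peptide transporter gene SLC15A1 went the other way, from 12.08 and 11.79 to 11.49 and 11.51 (difference -0.43, SE 0.17, limma adjusted p = 0.439). SCARB1, the HDL receptor that PDZK1 stabilises in liver, showed overlapping groups, with 11.99 and 11.72 against 11.79 and 11.73.

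Values of 3 export pumps that bind PDZK1 were read beside it. These pumps were chosen with earlier results of these data known. Nothing is read from how many of them passed the test, which called 0.0979% of all transcript clusters. ABCG2, an efflux transporter reported to bind PDZK1, rose 11.2-fold, from 8.80 and 8.71 to 12.21 and 12.27 (difference 3.49, SE 0.15, limma adjusted p = 0.00669). ABCC2 (MRP2), an organic anion pump, had 11.86 and 12.00 against 11.80 and 11.48. Its groups lay close together and the difference was -0.29 (SE 0.18, limma adjusted p = 0.589). ABCC4 (MRP4), named after its values were seen, had 11.89 and 12.06 against 12.44 and 12.38 (difference 0.43, limma adjusted p = 0.408). Only ABCG2 of these 3 pumps passed the test, a call that was lost when either fb-PMT array was left out and held when either control array was. The urate and phosphate transporters SLC22A12 and SLC34A1, known PDZK1 cargo in kidney, lay under the background on every array.

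**Figure D3:**
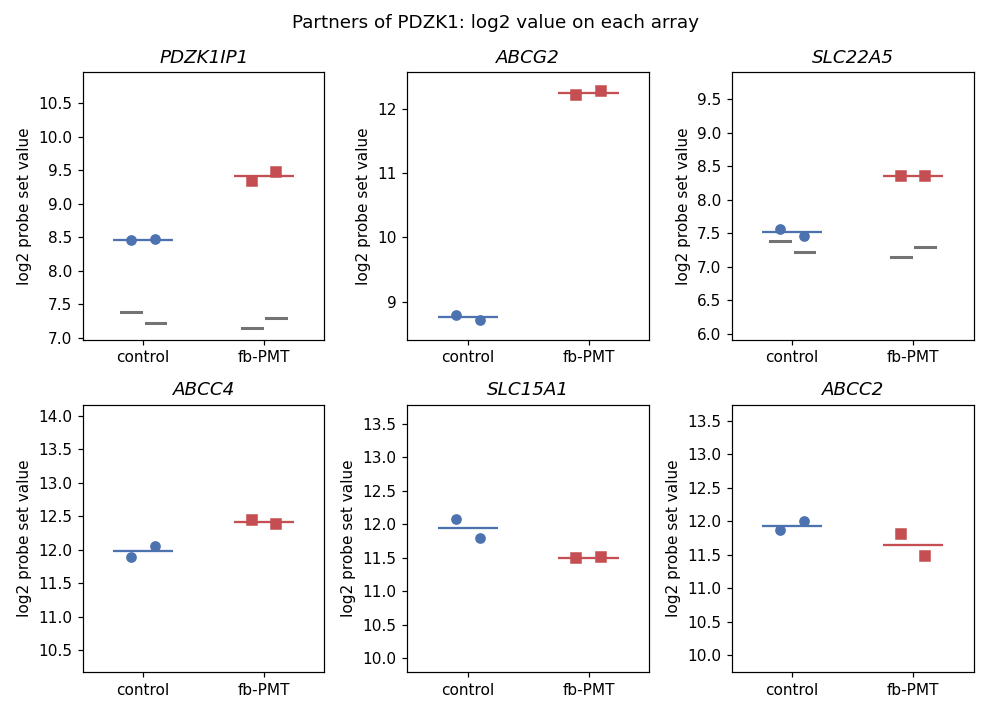
Log2 probe set values on each array for 6 genes whose proteins bind PDZK1, with control arrays as circles, fb-PMT arrays as squares, the mean of 2 arrays as a line and the 95th percentile of negative controls as grey dashes where they fall in the panel. ABCG2 moves from 8.80 and 8.71 to 12.21 and 12.27 and PDZK1IP1 from 8.46 and 8.47 to 9.34 and 9.48, whereas SLC15A1 and ABCC2 lie lower with fb-PMT.

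PDZK1IP1 (MAP17), a small membrane protein that binds PDZK1, had the largest difference among the other scaffolds and ERM proteins. Its log2 values were 8.46 and 8.47 for control and 9.34 and 9.48 for fb-PMT, all above the negative controls. The groups did not overlap, and the difference was 0.95 (SE 0.15, 1.93-fold higher, limma adjusted p = 0.151). In this list of 11 measured genes 5 were higher and 6 lower, 0 passed, and the median difference was -0.0104. GOPC (CAL), which directs CFTR to lysosomes, had 9.33 and 9.49 against 9.19 and 9.24 (difference -0.19, limma adjusted p = 0.68).

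The nearest relatives of the scaffolds and of ezrin that lay above background showed small differences. NHERF2, the other scaffold with tandem PDZ domains, had 13.42 and 13.57 against 13.51 and 13.41, so its groups overlapped (difference -0.04, SE 0.15). NHERF4 lay under the background on every array. The ezrin relatives radixin (RDX) and moesin (MSN) also had overlapping groups, with differences of 0.00 (SE 0.19) and -0.01 (SE 0.18). Merlin (NF2), a tumour suppressor of the same superfamily, was at -0.15 (SE 0.16).

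Of the other cation-proton exchangers and their cofactors, 10 were measured, 8 of them lay under the background on every array, and 0 passed. The other 2 were SLC9B2, above background on 1 of 4 arrays, and CHP1, above it on all. SLC9B2 (NHA2), an exchanger of intracellular membranes, had 7.43 and 7.13 for control and 7.02 and 6.89 for fb-PMT, of which only the value of control replicate 1 was above background (at least 1.04-fold lower, limma adjusted p = 0.548). CHP1, the calcineurin-like cofactor that sodium-proton exchangers need at the plasma membrane, had 14.33, 14.29, 14.40 and 14.32, with overlapping groups (difference 0.06, SE 0.15). The values of SLC9A4, SLC9A5, SLC9A9, SLC9B1, SLC9C1, SLC9C2, CHP2 and TESC ran from 2.37 (SLC9C2) to 6.45 (TESC). Of the exchangers measured, SLC9A2 and SLC9A8 were the 2 that lay above background on each array.

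Genes of CFTR regulation, quality control and traffic were represented by 20 transcript clusters of 19 genes, 9 higher and 11 lower, with 0 past the threshold and a median of -0.0505. SGK1, a kinase that raises the surface abundance of CFTR, SLC9A3 and the epithelial sodium channel, had the largest difference. Its log2 values were 9.79 and 9.43 for control and 10.52 and 11.12 for fb-PMT. The groups did not overlap although the fb-PMT arrays were spread, and the difference was 1.21 (SE 0.25, 2.31-fold higher, limma adjusted p = 0.246). MYO6, the motor of CFTR endocytosis, had 9.17 and 9.60 against 9.57 and 10.03, with overlapping groups (difference 0.41, SE 0.24). The catalytic subunits of protein kinase A, PRKACA and PRKACB, were at 0.12 (SE 0.18) and -0.18 (SE 0.17).

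In the list of bicarbonate and chloride transport of duct epithelium, 0 of 19 measured genes passed, 9 were higher and 10 lower. ATP1B1, the beta subunit of the sodium pump that drives these transports, had 13.15 on both control arrays and 14.42 on both fb-PMT arrays (difference 1.27, SE 0.14, 2.41-fold higher, limma adjusted p = 0.0675). SCNN1A, the alpha subunit of the epithelial sodium channel, had 12.70 and 12.73 against 14.01 and 13.87 (difference 1.22, SE 0.15, 2.34-fold higher, limma adjusted p = 0.0779). The groups of both genes did not overlap, and both missed the threshold. They passed when the lowest 30% of transcript clusters were left out. That setting called 61 transcript clusters higher and 6 lower, against 21 and 0 in the fit reported. The beta and gamma subunits of the channel, SCNN1B and SCNN1G, lay under the background on every array.

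The median difference of this list was -0.00042. Of its other members 3 are given here that were named after their values were seen, and they do not stand for the list. SLC12A2 (NKCC1), the sodium-potassium-chloride cotransporter, had 11.41 and 11.42 against 11.00 and 11.01 (difference -0.41, SE 0.14, limma adjusted p = 0.403). SLC4A7, a sodium-bicarbonate cotransporter, was at -0.48 (SE 0.15, limma adjusted p = 0.375), and CA2, a cytosolic carbonic anhydrase, at -0.67 (SE 0.20, limma adjusted p = 0.368). The groups of all 3 did not overlap, and none of the 3 passed. In the whole list of 19, groups did not overlap for 3 genes with fb-PMT above and for 7 with fb-PMT below. Of all transcript clusters 20.2% did so above and 22.3% below.

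For pH regulation of tumour cells 6 of 11 genes were measured and 0 passed, 4 higher and 2 lower. CA12, a carbonic anhydrase of the cell surface, had 12.22 and 12.01 against 12.57 and 12.63 (difference 0.49, SE 0.16, limma adjusted p = 0.379), and BSG, the chaperone of lactate transporters, was at 0.22 (SE 0.15). Microvillus and brush border proteins, 16 of 16 measured, had 8 higher and 8 lower with 0 passing. COBL, an actin nucleator, had 8.98 and 9.03 against 8.39 and 8.30 (difference -0.66, SE 0.15, limma adjusted p = 0.256). BAIAP2L1, which shapes membrane protrusions, had 11.41 and 11.59 against 10.82 and 10.97 (difference -0.60, SE 0.16, limma adjusted p = 0.327). VIL1, the actin bundler of the brush border, lay under the background on every array.

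**Figure D4:**
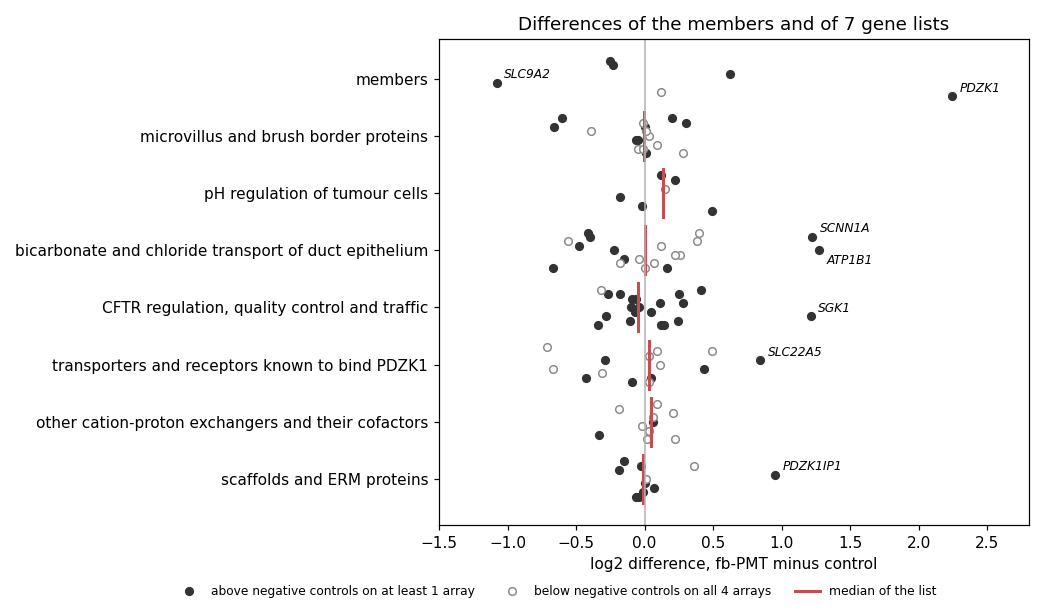
Log2 difference, fb-PMT minus control, of every measured gene of the 7 lists and of the 6 members, filled where at least 1 array lay above the negative controls and open where none did, with the median of each list as a line and genes at 0.8 or more labelled. None of the list genes passed limma's test, PDZK1 was among the values that chose the members, and the medians of the 7 lists lie between -0.0505 and 0.135.

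In all, the 7 lists held 96 transcript clusters, of which 50 were higher and 46 lower, with a median difference of 0.00794 against -0.0173 over all transcript clusters. At an unadjusted p under 0.05 there were 7 higher and 8 lower, against 5.7% higher and 5.49% lower of all transcript clusters, and 0 passed after adjustment. By list these were 1 and 0 for scaffolds, 0 and 0 for exchangers, 2 and 2 for genes that bind PDZK1, 1 and 0 for CFTR regulation, 2 and 3 for duct transport, 1 and 0 for pH regulation, and 0 and 3 for the brush border. With an intensity trend 5 of them were called higher (PDZK1IP1, SLC22A5, SGK1, SCNN1A and ATP1B1) and 1 lower (BAIAP2L1), where that fit called 1.37% of all transcript clusters higher and 0.513% lower. Of the 8 lower at limma's unadjusted p under 0.05, SLC15A2 and ESPN lay under the background on every array. The lists were written with earlier results of these data known.

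The genes whose centred 4-array profiles were nearest to that of PDZK1, by Euclidean distance over 4 arrays, were STC1 (0.101), TNFSF10 (0.168), GBP4 (0.188), PLAAT4 (0.199) and TC2N (0.228). STC1, a secreted glycoprotein hormone, had 7.68 and 7.47 against 9.80 and 9.69. Nearest to SLC9A2 were PPP2R2B (0.0625), AKR1B10 (0.0989), SLC38A4 (0.126), ZNF606 (0.16) and KRT7 (0.169), with ZNF606 below the negative controls on all 4 arrays. AKR1B10 was below them on both fb-PMT arrays, and GBP4, like PDZK1, on both control arrays. PPP2R2B, a regulatory subunit of protein phosphatase 2A, had 9.26 and 9.01 against 8.11 and 8.06. These distances describe 4 arrays and say nothing of shared function.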

How the data were processed

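Total RNA for 2 control and 2 fb-PMT arrays was labelled with biotin by a whole-transcript protocol, per the labels' protocols. The authors deposited log2 values, 1 per probe set. Per the submitters' processing notes they used RMA, which corrects background, normalizes the arrays to each other and summarises probes, and the software Transcriptome Analysis Console 4.0.1.36. Its variant of RMA is not given in the sources used here. Dim probe sets come out of RMA with shrunken differences. Scanner files were not used here.

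Of 24351 rows 2903 control probe sets were left out. The platform annotation gave 1 symbol for 17709 of the 21448 transcript clusters and none for 3739. The 95th percentile of 612 negative control probe sets on each array served as background. A gene below it on both arrays of a group has only a bound there ("at least"). Where both groups lie below, the fold is left out. limma 3.58.1 in R 4.3.3 (lmFit, eBayes, no covariate, no intensity trend) compared fb-PMT with control, two-sided, with Benjamini-Hochberg adjustment over 21448 and 2 residual and 3.72 prior degrees of freedom. The number of arrays limits the precision: the median SE of a difference was 0.175. The fit was tested on data simulated from its own variance model, which cannot show how well that model holds for these arrays.

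The members and lists were chosen with earlier results of these data known. Text names all members, up to 4 passing genes of a list or, where none passed, the 2 largest differences above background, all other measured exchangers, ABCG2 and ABCC2, and the 5 nearest profiles of PDZK1 and SLC9A2. Other names, such as SCARB1, NHERF2, SCNN1B and PRKACA, were added for their role or after their values were seen. Promoters are from RefSeq (GRCh38.p14), and all 6 measured members matched. Protein sequences were not analysed here.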

Additional observations from a re-analysis of the deposited data

How the results depend on the processing

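The differences of PDZK1, CFTR, SLC9A2, EZR and SLC9A8 kept their direction under every alternative run, and that of SLC9A3, below background, did not (-0.21 to 0.44 with 1 array left out). With 1 array left out EZR ran from -0.33 to -0.12, CFTR from 0.57 to 0.67 and SLC9A8 from -0.35 to -0.14. Counts depended on the variance model. The 21 transcript clusters called higher became 293 with an intensity trend, 286 with robust variances added, 61 with the lowest 30% left out, and 1 to 9 with 1 array left out. The 0 called lower became 110, 108 and 6 in the first 3 of these. Members called higher were 1 in the fit reported and 2 with an intensity trend, with or without robust variances (PDZK1 and CFTR), and 0 with 1 array left out. Members called lower were 0, and 1 (SLC9A2) with either trend. In the other lists 0 were called, against 5 higher and 1 lower with either trend and 2 higher with the lowest 30% left out. Replicate numbers are shared by the groups, and the correlation of same-numbered deviations across transcript clusters was 0.042, so they were not taken to pair the arrays. With the replicate block 1 transcript cluster was called higher, and 0 members, and the call of ABCG2 was lost too. Quantile normalization once more, centring and array weights left 17 to 22 called higher, PDZK1 among them. No member had several transcript clusters. With the mean over transcript clusters of a symbol the median of the CFTR regulation list was -0.0444. At the 90th percentile of negative controls 10015 transcript clusters were below background, against 11820. Signal over background limits SLC9A3 and the control level of PDZK1.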
